A study of Homo sapiens with 8 samples.

Results

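Loss of an eraser and loss of a writer of the same histone mark were set against each other in HEK293T cells, a transformed line from human embryonic kidney. The comparison took the 2 libraries of KDM5C knockout cells (sgKDM5C) and the 2 libraries of KMT2B knockout cells (sgKMT2B), which are 4 of the 8 libraries of the series, chosen by their genotype labels. Parental wild-type cells (WT, 2 libraries) gave a common point against which each knockout was also placed. The 2 libraries of a KDM6A knockout line (sgKDM6A) entered only the filter for low counts, the normalisation and the estimate of the spread. All cells grew in DMEM with 10% fetal bovine serum and antibiotics, with no further treatment named, and poly(A) RNA was sequenced from random-primed cDNA. The sources used here name neither the guide positions nor the number of clones behind a line, and do not say whether replicates were separate cultures, so each knockout may be 1 clone and differences between the lines and differences between the genotypes cannot be told apart. Of 60617 genes in the table, 17527 had enough counts to be tested.

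Methylation of lysine 4 of histone H3 (H3K4) marks active promoters in its trimethylated form. KMT2B, also known as MLL2, is the catalytic subunit of a COMPASS-type complex that adds methyl groups to H3K4, and its CXXC domain binds unmethylated CpG. KDM5C is an X-linked demethylase of the JmjC family that removes methyl groups from di- and trimethylated H3K4. It is known for keeping germline genes silent in neurons and for its mutations in X-linked intellectual disability.

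The promoters of 6 genes that differed between the knockouts are shown because they belong to the gene groups described first: meiosis genes and HOX genes, which were higher in sgKDM5C, and an adhesion gene and a cancer-testis antigen, which were lower. Each run is the 250 bases before the start that RefSeq gives (GRCh38.p14, gene orientation, 5′ to 3′), and capitals mark every CpG dinucleotide. SMC1B (chr22:45413600-45413849, minus strand) holds 29 CpG, MAJIN (chr11:64972109-64972358, minus strand) 22, HOXA11 (chr7:27185233-27185482, minus strand) 11, HOXC4 (chr12:54016638-54016887, plus strand) 14, SLITRK3 (chr3:165197110-165197359, minus strand) 8 and MAGEB2 (chrX:30215313-30215562, plus strand) 15.
SMC1B: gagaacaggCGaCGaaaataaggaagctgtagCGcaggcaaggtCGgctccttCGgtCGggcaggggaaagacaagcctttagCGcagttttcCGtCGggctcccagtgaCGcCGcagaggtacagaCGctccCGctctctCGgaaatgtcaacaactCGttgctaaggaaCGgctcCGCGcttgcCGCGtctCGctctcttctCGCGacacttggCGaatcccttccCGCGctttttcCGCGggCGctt
MAJIN: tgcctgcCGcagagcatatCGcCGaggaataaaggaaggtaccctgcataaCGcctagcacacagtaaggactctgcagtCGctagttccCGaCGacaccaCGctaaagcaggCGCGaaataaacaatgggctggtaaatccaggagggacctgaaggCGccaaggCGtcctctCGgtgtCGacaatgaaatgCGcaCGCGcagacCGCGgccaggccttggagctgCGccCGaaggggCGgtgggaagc
HOXA11: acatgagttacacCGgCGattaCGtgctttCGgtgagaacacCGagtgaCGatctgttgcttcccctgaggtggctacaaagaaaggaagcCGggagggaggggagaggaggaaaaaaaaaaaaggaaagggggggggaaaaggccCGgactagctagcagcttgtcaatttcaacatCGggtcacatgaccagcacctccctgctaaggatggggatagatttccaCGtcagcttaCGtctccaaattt
HOXC4: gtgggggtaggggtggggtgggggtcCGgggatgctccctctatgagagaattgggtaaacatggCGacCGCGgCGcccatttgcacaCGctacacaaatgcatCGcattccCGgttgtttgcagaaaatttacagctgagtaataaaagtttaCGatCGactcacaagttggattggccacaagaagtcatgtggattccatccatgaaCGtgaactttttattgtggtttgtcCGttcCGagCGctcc
SLITRK3: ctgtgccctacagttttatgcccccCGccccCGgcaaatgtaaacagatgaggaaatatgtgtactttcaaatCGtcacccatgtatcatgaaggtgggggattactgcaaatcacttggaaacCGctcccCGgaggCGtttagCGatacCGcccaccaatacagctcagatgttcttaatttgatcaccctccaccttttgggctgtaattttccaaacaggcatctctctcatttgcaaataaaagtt
MAGEB2: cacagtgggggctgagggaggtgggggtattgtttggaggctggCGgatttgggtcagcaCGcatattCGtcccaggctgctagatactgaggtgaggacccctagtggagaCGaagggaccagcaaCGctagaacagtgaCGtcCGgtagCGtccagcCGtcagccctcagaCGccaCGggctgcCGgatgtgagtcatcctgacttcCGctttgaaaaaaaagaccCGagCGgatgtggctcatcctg

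Over the 300 bases that end 50 bases past each start, the ratio of observed to expected CpG was 1.17 for SMC1B and 1.03 for MAJIN, and between 0.657 and 0.788 for the others. The median over the 27303 promoters of the RefSeq table was 0.58. The letters TTCCCGC, searched on both strands as a form of the E2F motif, occur in the SMC1B run and not in the other 5, and 5.59% of the table's 250-base windows hold them. CACGTG, the E-box, occurs in none of the 6, against 6.49% of the windows. Whether promoter CpG content differed between genes that were higher and lower could not be examined, because fewer than 80% of those genes matched a promoter (75% of the protein-coding genes at least 2-fold higher and 70.9% of those at least 2-fold lower) and the check is void.

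The 4 knockout libraries were of like depth, with 26701619 and 25062543 counts in sgKDM5C and 25152073 and 25883185 in sgKMT2B, against 25099182 and 15868353 in WT. Replicates had a Pearson correlation across genes of 0.987 in either knockout, and their counts differed by more than sampling noise (chi-square per degree of freedom 10.8 in sgKDM5C and 7.88 in sgKMT2B), so no library was a copy of another. Values below are CPM (counts scaled to a common library size) adjusted by TMM, a normalisation that sets most genes to no change. Of the 10 HEK293T markers examined, VIM, KRT8 and KRT18 were well detected in all 6 libraries, while LHX1 and PRAME were at 0 or 1 count. Of the 8 that could be tested, 1 was higher in sgKDM5C (0 without sgKMT2B replicate 1), KRT18, and 4 were lower, NES, KRT8, CDH2 and LIN28B. NES, the intermediate filament nestin, had 5.61 and 6.62 CPM in sgKDM5C and 28.2 and 30.2 CPM in sgKMT2B, against 5.78 and 9.10 CPM in WT (log2 difference -2.26 ± 0.20, adjusted p = 4.88e-06 in the edgeR test described below). The blood cell genes PTPRC, CD3E, MS4A1 and HBB were at 0 in all 6, and the 12 blood markers summed to 12 to 12.2 CPM in sgKDM5C and 5.10 to 5.68 CPM in sgKMT2B. PECAM1, CDH5 and TEK, which define endothelium, had at most 5 counts in any library.

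The targeted transcripts were lowered but present. KDM5C (chrX:53191321-53225422) had 331 and 312 CPM in sgKDM5C and 395 and 390 CPM in sgKMT2B, against 440 and 471 CPM in WT. Both sgKDM5C libraries lay below all others. The difference between the knockouts was a log2 value of -0.29 ± 0.08 (SE), with an adjusted p of 0.0214 in edgeR's quasi-likelihood test with Benjamini-Hochberg adjustment, the test behind every adjusted p below. It did not pass once any 1 of the 4 knockout libraries was left out: adjusted p = 0.0549 and 0.146 without sgKDM5C replicate 1 and 2, and 0.107 and 0.101 without sgKMT2B replicate 1 and 2. KMT2B (chr19:35718019-35738878) had 113 and 128 CPM in sgKDM5C and 63.0 and 75.5 CPM in sgKMT2B, against 146 and 137 CPM in WT. Here the sgKMT2B libraries stood below the rest without overlap, and sgKDM5C exceeded sgKMT2B by 0.79 ± 0.11 on the log2 scale (adjusted p = 0.000172). Transcript counts do not show whether protein was lost, since a frameshift can leave its transcript in place.

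**Figure D1:**
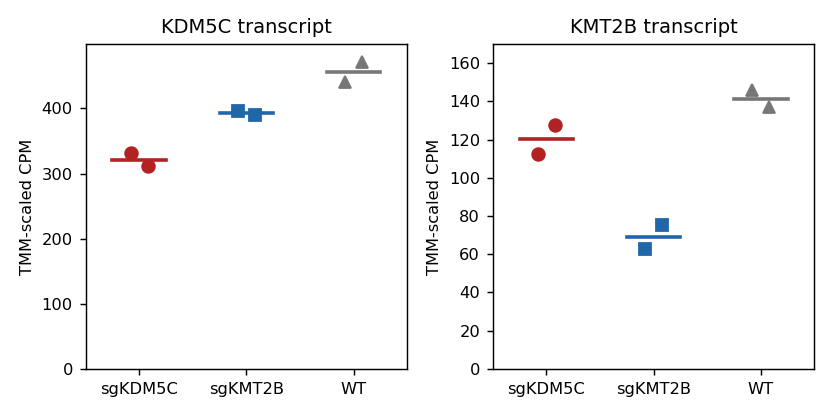
TMM-scaled CPM of KDM5C (left panel) and KMT2B (right panel) in sgKDM5C, sgKMT2B and WT; each point is 1 library and each bar the mean of 2. KDM5C was lowest in sgKDM5C at 312 and 331 CPM, and KMT2B was lowest in sgKMT2B at 63.0 and 75.5 CPM.

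Between the knockouts 3882 genes passed an adjusted p of 0.05, which is 22.1% of those tested: 2041 were higher in sgKDM5C (11.6%) and 1841 were lower (10.5%). Among differences of at least 2-fold the balance was unequal, with 1010 genes higher in sgKDM5C (5.76%) and 387 lower (2.21%), together 1397 (7.97%). The median difference over all genes tested was 0.00 on the log2 scale. Against the shared WT libraries, sgKDM5C differed at 3969 genes (22.6%), 1949 higher and 2020 lower, and sgKMT2B at 4931 genes (28.1%), 2398 higher and 2533 lower. The count between the knockouts fell to 2583 and 2378 without sgKDM5C replicate 1 and 2, and to 2257 and 2236 without sgKMT2B replicate 1 and 2.

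The largest increases were mostly of genes that were at or near 0 in sgKMT2B and well detected in sgKDM5C and WT. CSTF2T (chr10:51695487-51699591), which encodes a testis-enriched form of an mRNA 3′ end cleavage factor, had 15.9 and 13.5 CPM in sgKDM5C and 0 counts in both sgKMT2B libraries, against 10.7 and 11 CPM in WT. CXCL12 (chr10:44370165-44386493), a chemokine, had 7.07 and 8.02 CPM in sgKDM5C and 0 counts in both sgKMT2B libraries, against 2.02 and 3.64 CPM in WT. With the floor of 3 counts over a group, CSTF2T was at least 247-fold higher in sgKDM5C and CXCL12 at least 126-fold (adjusted p = 1.42e-08 and 8.81e-07). CXCR4, the receptor for CXCL12, had 7.79 and 6.81 CPM in sgKDM5C and 0.0804 and 0.197 CPM in sgKMT2B, against 3.26 and 3.90 CPM in WT, a log2 difference of 5.66 ± 0.36 (adjusted p = 2.49e-07). Ligand and receptor thus stood highest in sgKDM5C and lowest in sgKMT2B, with no overlap between any of the 3 groups.

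Further genes of this kind encode matrix, adhesion and signalling proteins. COL4A4, a chain of basement membrane collagen IV, had 4.44 and 7.11 CPM in sgKDM5C and 2 counts in all in sgKMT2B, against 3.02 and 5.13 CPM in WT, a ratio between the knockouts of 145 (95% counting interval 39.7 to 1200). COL4A3, the neighbour that shares its promoter region and was picked out after its values were seen, had 2.62 and 2.80 CPM in sgKDM5C and 0 and 0.0788 CPM in sgKMT2B, against 1.07 and 2.08 CPM in WT. GFRA1, the co-receptor for the kidney-inducing factor GDNF, had 16.1 and 17 CPM in sgKDM5C and 0.362 and 0.394 CPM in sgKMT2B, against 11 and 11.3 CPM in WT (5.43 ± 0.24, adjusted p = 5.69e-09). TENM1, a teneurin adhesion receptor, HS6ST3, a heparan sulfate sulfotransferase, and SUSD4, a complement regulator, followed with log2 differences of 5.51 ± 0.48, 5.24 ± 0.44 and 5.22 ± 0.28. CA2, a carbonic anhydrase, had 71.6 and 79.2 CPM in sgKDM5C and 1.97 and 2.25 CPM in sgKMT2B, against 166 and 185 CPM in WT, so that both knockouts were below WT and sgKMT2B much further (5.16 ± 0.14 between them, adjusted p = 7.77e-11). SKIC2, an RNA helicase of the exosome's helper complex, rested on 1 library: it had 14.9 and 1.66 CPM in sgKDM5C and 0.281 and 0.0394 CPM in sgKMT2B, against 9.29 and 2.08 CPM in WT, and its adjusted p of 0.0118 became 0.129 without sgKDM5C replicate 1, 0.0515 without sgKMT2B replicate 1 and 0.0866 without sgKMT2B replicate 2.

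The largest decreases were of genes that were high in sgKMT2B, low in sgKDM5C, or both. SNAI2, a transcription factor of epithelial-mesenchymal transition also called SLUG, had 0.728 and 1.02 CPM in sgKDM5C and 78.3 and 85.8 CPM in sgKMT2B, against 17 and 23.3 CPM in WT. SPARC, a secreted collagen-binding glycoprotein, had 4.08 and 4.09 CPM in sgKDM5C and 91.5 and 102 CPM in sgKMT2B, against 28.3 and 37.2 CPM in WT. BCHE, butyrylcholinesterase, had 0.146 and 0.0757 CPM in sgKDM5C and 15.4 and 16.9 CPM in sgKMT2B, against 0.702 and 1.95 CPM in WT. In each of these WT lay between the knockouts, and the log2 differences were -6.55 ± 0.22, -4.57 ± 0.17 and -7.12 ± 0.48 (adjusted p = 6.49e-10, 1.23e-09 and 3.68e-07).

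Other decreases were of genes high in sgKMT2B and low in both sgKDM5C and WT. COL3A1, the fibrillar collagen III chain, had 1.86 and 1.10 CPM in sgKDM5C and 40.3 and 46.1 CPM in sgKMT2B, against 1.32 and 1.69 CPM in WT (-4.86 ± 0.23, adjusted p = 1.46e-08). CLCN4, an endosomal chloride-proton exchanger, had 0.473 and 0.757 CPM in sgKDM5C and 14.5 and 16.2 CPM in sgKMT2B, against 0.0826 and 0.520 CPM in WT (-4.64 ± 0.45, adjusted p = 8.75e-06). SLITRK3, a synaptic adhesion protein whose promoter is shown above, had 0.0364 and 0.227 CPM in sgKDM5C and 8.68 and 10.4 CPM in sgKMT2B, against 0.248 and 0.390 CPM in WT (-6.15 ± 0.40, adjusted p = 2.70e-07). SNCG, a synuclein of sensory neurons, and CPPED1, a phosphatase, followed the same order with differences of -4.85 ± 0.45 and -3.25 ± 0.34. For all 5 the sgKDM5C libraries did not pass the test against WT.

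**Figure D2:**
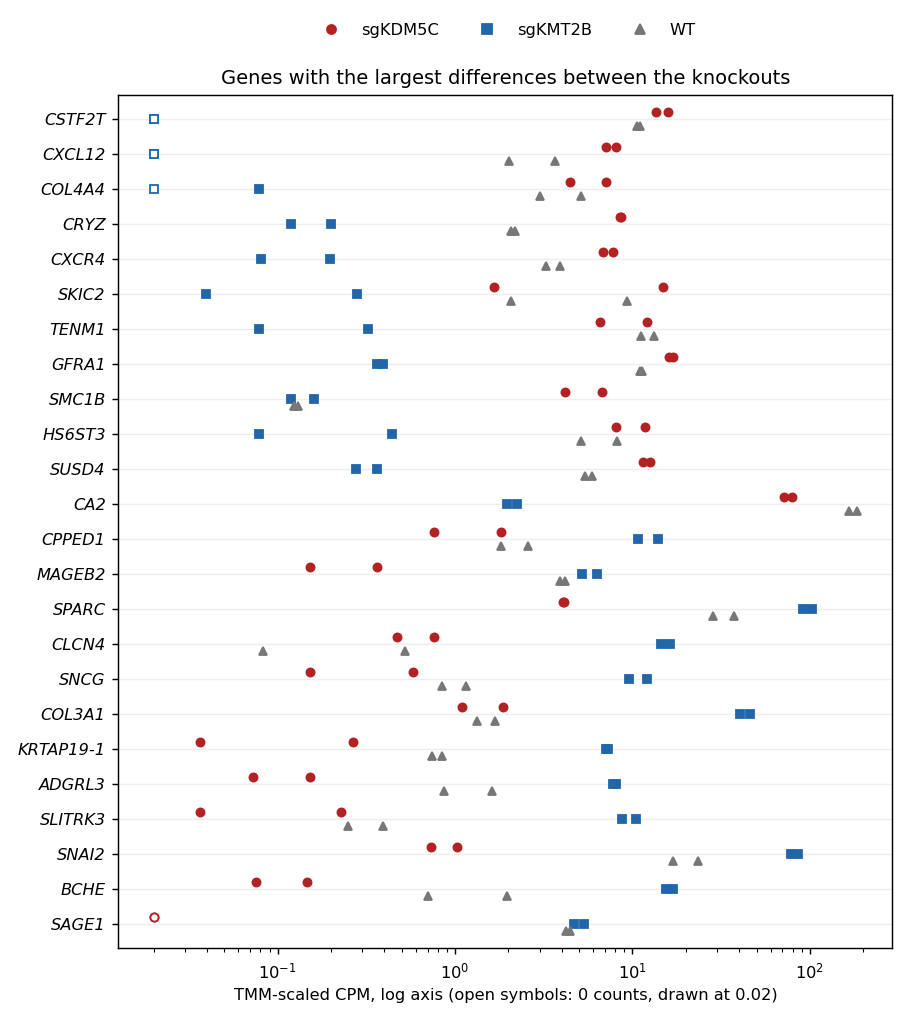
TMM-scaled CPM on a log axis of the 12 genes with the largest increases and the 12 with the largest decreases in sgKDM5C relative to sgKMT2B; each symbol is 1 library and open symbols are libraries with 0 counts. The upper 12 genes have sgKMT2B far to the left, SMC1B being the gene for which WT lies there too; in the lower 12, SAGE1 and MAGEB2 have WT beside sgKMT2B, and CLCN4, COL3A1 and SLITRK3 have WT beside sgKDM5C.

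Some genes had the knockouts on opposite sides of WT, with every library of a knockout on its own side and both comparisons with the shared WT libraries past the threshold. In each direction the 6 genes are given whose smaller change from WT was the largest. Other genes met the same conditions, among them GFRA1, LRP2 and UTF1. CRYZ, a quinone reductase, had 8.45 and 8.66 CPM in sgKDM5C and 0.201 and 0.118 CPM in sgKMT2B, against 2.19 and 2.08 CPM in WT. HOXB5, an anterior-posterior patterning factor, had 34.3 and 34.4 CPM in sgKDM5C and 3.58 and 2.88 CPM in sgKMT2B, against 12.7 and 10.4 CPM in WT. NELL2, a secreted ligand of axon guidance, had 18.3 and 17.8 CPM in sgKDM5C and 1.08 and 0.985 CPM in sgKMT2B, against 4.83 and 7.47 CPM in WT. PRRX1, a mesenchymal homeobox factor, XK, a membrane protein that carries the Kx blood group, and PLEKHG4B, a guanine nucleotide exchange factor, had the same order. The difference between the knockouts for these 6 ran from 3.41 ± 0.17 for HOXB5 to 5.70 ± 0.33 for CRYZ. TYW3, next to CRYZ and picked out after its values were seen, had 8.23 and 8.78 CPM in sgKDM5C and 0.803 and 0.0788 CPM in sgKMT2B, against 3.55 and 2.34 CPM in WT.

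In the opposite order were BCHE, SNAI2 and SPARC, given above, with ADGRL3, KRTAP19-1 and KCNN3. ADGRL3, a latrophilin adhesion receptor, had 0.0728 and 0.151 CPM in sgKDM5C and 7.75 and 8.08 CPM in sgKMT2B, against 0.868 and 1.62 CPM in WT (-6.09 ± 0.37, adjusted p = 1.54e-07). KRTAP19-1, a hair keratin-associated protein, had 0.0364 and 0.265 CPM in sgKDM5C and 7.27 and 7.09 CPM in sgKMT2B, against 0.744 and 0.845 CPM in WT. KCNN3, a calcium-activated potassium channel, had 0.546 and 0.946 CPM in sgKDM5C and 5.74 and 6.74 CPM in sgKMT2B, against 1.78 and 2.99 CPM in WT.

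The HOX genes, homeobox factors in 4 clusters that set position along the body axis and depend on H3K4 methylation by MLL-family enzymes for their maintenance, had the largest share of higher members among the lists examined. Of 38 tested HOX genes, 28 were higher in sgKDM5C and 1 was lower, with a median log2 difference of 1.03, against 11.6% higher, 10.5% lower and a median of 0.00 over all genes. Leaving out any 1 library left 22 to 28 higher. By cluster, 10 of 11 HOXA genes, 8 of 9 HOXB genes, 4 of 9 HOXC genes and 6 of 9 HOXD genes were higher. The HOXD count was 2 without sgKMT2B replicate 1 and 3 without sgKMT2B replicate 2. Median differences were 1.15 in HOXA, 1.53 in HOXB, 0.91 in HOXC and 0.89 in HOXD.

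The HOXB cluster held the widest range. HOXB6 had 65.6 and 54.3 CPM in sgKDM5C and 9.40 and 10.8 CPM in sgKMT2B, against 41.2 and 34.6 CPM in WT (2.57 ± 0.15, adjusted p = 8.03e-08). HOXB8 had 49.1 and 40.7 CPM in sgKDM5C and 9.08 and 9.46 CPM in sgKMT2B, against 28.0 and 27.2 CPM in WT (2.28 ± 0.16, adjusted p = 7.25e-07). HOXB9, at the 5′ side of these, had 286 and 268 CPM in sgKDM5C and 107 and 114 CPM in sgKMT2B, against 280 and 303 CPM in WT (1.33 ± 0.09, adjusted p = 5.08e-07). HOXB13, the most 5′ member and separated from the rest of the cluster, went the other way with 39.2 and 35.5 CPM in sgKDM5C and 55.2 and 50.8 CPM in sgKMT2B, against 38.0 and 33.3 CPM in WT (-0.50 ± 0.12, adjusted p = 0.0073). It did not pass without sgKDM5C replicate 2 or without sgKMT2B replicate 1.

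In HOXA the differences were more even. HOXA6 had 34.5 and 29.2 CPM in sgKDM5C and 12.5 and 9.85 CPM in sgKMT2B, against 43.4 and 40.8 CPM in WT (1.51 ± 0.15, adjusted p = 1.26e-05). HOXA10 had 113 and 105 CPM in sgKDM5C and 42.9 and 42.1 CPM in sgKMT2B, against 75.3 and 75.1 CPM in WT (1.36 ± 0.11, adjusted p = 1.76e-06). HOXA11, whose promoter is shown above, had 48.9 and 49.2 CPM in sgKDM5C and 21.4 and 22.3 CPM in sgKMT2B, against 71.6 and 82.5 CPM in WT (1.16 ± 0.12, adjusted p = 1.09e-05). WT lay above both knockouts for HOXA6 and HOXA11 and between them for HOXA10, so the place of WT was not the same along the cluster.

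HOXC and HOXD differed by less. HOXC4 had 38.5 and 40.9 CPM in sgKDM5C and 20.7 and 21.6 CPM in sgKMT2B, against 26.3 and 27.0 CPM in WT (0.91 ± 0.12, adjusted p = 0.000154). HOXD11 had 17 and 16.6 CPM in sgKDM5C and 8.64 and 4.61 CPM in sgKMT2B, against 11.9 and 12.5 CPM in WT (1.34 ± 0.23, adjusted p = 0.00111). The most 5′ members HOXC13, with a difference of -0.23 ± 0.15, and HOXD13, with -0.06 ± 0.10, did not pass the test. Against the shared WT libraries, 2, 4, 4 and 2 genes of HOXA, HOXB, HOXC and HOXD were higher in sgKDM5C and 1, 0, 0 and 1 lower, while in sgKMT2B 0, 1, 0 and 1 were higher and 8, 6, 2 and 2 lower.

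**Figure D3:**
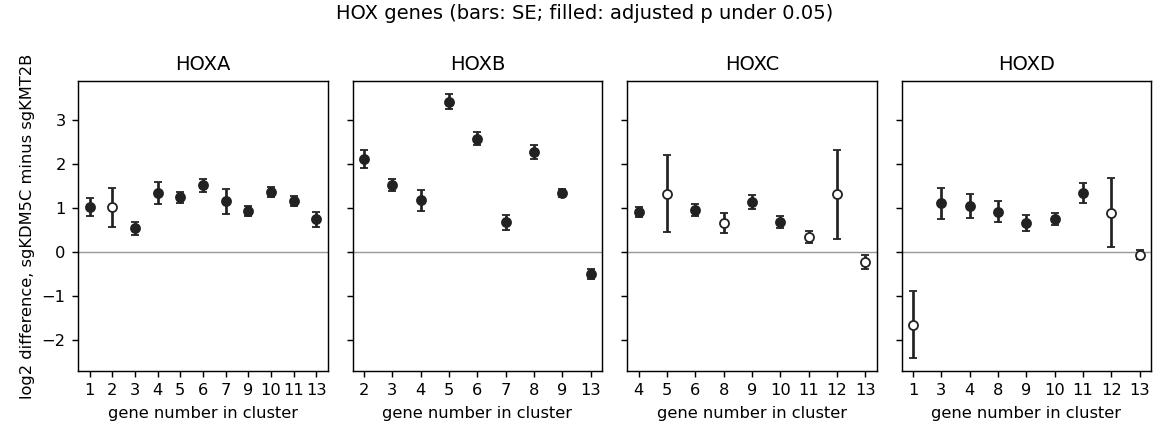
Log2 difference (sgKDM5C minus sgKMT2B, with its SE) of each tested HOX gene, by cluster and gene number; filled points passed an adjusted p of 0.05. Most points lie above 0, with medians of 1.15 in HOXA and 1.53 in HOXB, and the members numbered 13 of HOXB, HOXC and HOXD lie at or below 0.

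The germline genes SMC1B, BRME1, MAJIN and SYCE2 were higher in sgKDM5C than in both other groups. Of 19 tested germline and meiosis genes, 5 were higher in sgKDM5C and 1 lower (3 without sgKDM5C replicate 2), with a median of 0.33. Against the shared WT libraries the list had 6 members higher and 0 lower in sgKDM5C (median 0.68) and likewise 6 higher and 0 lower in sgKMT2B (median 0.58), so a rise over WT was not particular to sgKDM5C. SMC1B, the meiotic cohesin subunit, had 4.15 and 6.77 CPM in sgKDM5C and 0.161 and 0.118 CPM in sgKMT2B, against 0.124 and 0.130 CPM in WT (5.24 ± 0.57, adjusted p = 2.38e-05). BRME1, a partner of the BRCA2 loading complex in meiotic recombination, had 56.6 and 50.2 CPM in sgKDM5C and 16.2 and 13.3 CPM in sgKMT2B, against 11 and 8.58 CPM in WT (1.86 ± 0.19, adjusted p = 1.48e-05). MAJIN, which tethers meiotic telomeres to the nuclear envelope, had 2.59 and 1.74 CPM in sgKDM5C and 0.201 and 0.0788 CPM in sgKMT2B, against 0.537 and 0.260 CPM in WT (3.91 ± 0.62, adjusted p = 0.000583). The sgKDM5C libraries did not overlap either other group in these 3 genes. SYCE2, of the synaptonemal complex, and DMC1, the meiotic recombinase, were higher by 1.34 ± 0.28 and 0.87 ± 0.17, and MEIOC, a regulator of meiotic entry, was lower (-1.26 ± 0.25, adjusted p = 0.00235). SMC1B and MAJIN reached the test only through the sgKDM5C libraries, where they are high.

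Cancer-testis antigens, germline proteins that many tumour lines express, moved the other way. Only 3 of 34 listed genes could be tested, and 2 were lower in sgKDM5C. SAGE1 had 0 counts in both sgKDM5C libraries and 4.70 and 5.36 CPM in sgKMT2B, against 4.46 and 4.22 CPM in WT, which is at least 90.4-fold lower in sgKDM5C (adjusted p = 1.98e-06). MAGEB2 had 0.364 and 0.151 CPM in sgKDM5C and 6.35 and 5.16 CPM in sgKMT2B, against 4.17 and 3.90 CPM in WT (-4.44 ± 0.31, adjusted p = 6.27e-07). Both genes are X-linked, and in both sgKMT2B and WT lay close together.

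Neuronal genes differed in either direction. Of 49 tested genes of neuronal adhesion and axon guidance, 12 were higher in sgKDM5C and 11 lower (7 lower without sgKDM5C replicate 1), with a median of -0.09. NRXN3, a presynaptic neurexin, had 5.75 and 6.58 CPM in sgKDM5C and 0.402 and 0.315 CPM in sgKMT2B, against 5.33 and 6.37 CPM in WT (4.09 ± 0.30, adjusted p = 8.41e-07). SLITRK5, a synaptic adhesion protein, had 5.10 and 6.43 CPM in sgKDM5C and 32.2 and 37.5 CPM in sgKMT2B, against 14.3 and 16 CPM in WT (-2.60 ± 0.15, adjusted p = 1.10e-07). Teneurins TENM1 and TENM4 were higher, while the latrophilins ADGRL1, ADGRL2 and ADGRL3, their binding partners at synapses, were lower, with differences of -0.68, -0.38 and -6.09.

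Of 39 tested genes of the neuronal cytoskeleton, synapse and channels, 13 were higher (8 without sgKMT2B replicate 2) and 5 lower, with a median of 0.36. INA, the neurofilament protein alpha-internexin, had 51.8 and 38.9 CPM in sgKDM5C and 10.4 and 9.58 CPM in sgKMT2B, against 22.6 and 24.0 CPM in WT (2.18 ± 0.19, adjusted p = 3.21e-06). GRIN1, the obligate NMDA receptor subunit, had 9.72 and 7.79 CPM in sgKDM5C and 0.803 and 1.18 CPM in sgKMT2B, against 2.69 and 2.99 CPM in WT (3.13 ± 0.28, adjusted p = 3.46e-06). VAMP2, a SNARE of synaptic vesicles, was higher by 0.97 ± 0.12. The sgKDM5C libraries were the highest of the 3 groups for INA, GRIN1 and VAMP2.

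Clustered protocadherins, which give neurons their surface identity, were scarcely transcribed: 15 of 53 could be tested, 6 of them lower in sgKDM5C and 1 higher (0 without sgKDM5C replicate 1 or 2 or sgKMT2B replicate 1), with a median of -2.24. PCDHB11 had 0.109 and 0.0757 CPM in sgKDM5C and 0.924 and 0.788 CPM in sgKMT2B, against 0.0413 and 0 CPM in WT (-3.14 ± 0.68, adjusted p = 0.00451). The 6 lower members all belong to the beta cluster, and none of them passed the test against WT in sgKDM5C. PCDHB11, PCDHB12, PCDHB14, PCDHB15 and PCDHB16 reached the test only through the sgKMT2B and sgKDM6A libraries, where they are higher. Without sgKDM5C replicate 2 or without sgKMT2B replicate 1 only 2 were lower, and none had a mean of 1 CPM or more over all libraries, so these calls rest on few counts.

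Developmental transcription factors leaned to sgKDM5C. Of 117 tested, 31 were higher and 15 lower (9 without sgKDM5C replicate 2 and 8 without sgKMT2B replicate 2), with a median of 0.14. SOX21, an SRY-box repressor of neural progenitors, had 14.3 and 12.6 CPM in sgKDM5C and 0.603 and 0.552 CPM in sgKMT2B, against 7.06 and 9.03 CPM in WT (4.53 ± 0.28, adjusted p = 1.38e-07). FOXA1, a pioneer factor, had 22.4 and 21.2 CPM in sgKDM5C and 3.94 and 3.90 CPM in sgKMT2B, against 14.4 and 13.8 CPM in WT (2.47 ± 0.16, adjusted p = 2.08e-07). BARHL2, a neural homeobox factor, was higher by 3.27 ± 0.24. In these 3 genes the sgKMT2B libraries were far below both other groups, which differed from each other by much less.

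Of 20 tested kidney lineage genes 9 were higher in sgKDM5C and 1 lower (2 without either WT library, median 0.37), and of 14 pluripotency-associated genes 6 were higher and 2 lower (median 0.54). LRP2, the megalin receptor of proximal tubules, had 57.4 and 64.2 CPM in sgKDM5C and 1.77 and 1.93 CPM in sgKMT2B, against 41.3 and 44.4 CPM in WT (5.03 ± 0.17, adjusted p = 7.57e-10). PODXL, podocalyxin of podocytes, had 58.0 and 66.8 CPM in sgKDM5C and 20.6 and 17.6 CPM in sgKMT2B, against 76.9 and 76.8 CPM in WT (1.70 ± 0.13, adjusted p = 1.14e-06). UTF1, a chromatin factor of embryonic stem cells, had 35.6 and 40.6 CPM in sgKDM5C and 1.61 and 2.48 CPM in sgKMT2B, against 28.0 and 25.2 CPM in WT (4.21 ± 0.21, adjusted p = 2.35e-08). ESRRB, an orphan nuclear receptor of the same cells, and TFCP2L1, a factor of naive pluripotency, were higher by 3.25 ± 0.25 and 1.89 ± 0.16. The 2 lower pluripotency genes were DNMT3B and LIN28B, and 1 was left without any 1 of the knockout libraries.

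Retinoic acid genes carried a similar contrast: 13 of 37 tested genes of retinoic acid handling and nuclear receptors were higher (8 without sgKMT2B replicate 1) and 7 lower (4 without sgKDM5C replicate 1 and 4 without sgKMT2B replicate 2). ALDH1A2, the main retinoic acid-making enzyme of the embryo, had 131 and 124 CPM in sgKDM5C and 18.7 and 19.9 CPM in sgKMT2B, against 130 and 150 CPM in WT (2.72 ± 0.11, adjusted p = 3.25e-09). CYP26B1, which degrades retinoic acid, was higher by 1.65 ± 0.23 and DHRS3, which reduces retinaldehyde, by 1.5 ± 0.15. RDH10, which oxidises retinol in the first step of synthesis, was lower (-0.38 ± 0.12, adjusted p = 0.0306), and the synthesis enzymes ALDH1A1 and ALDH1A3 did not pass, with differences of -0.16 ± 0.60 and 0.31 ± 0.21, so enzymes of synthesis did not move together. RDH10, ALDH1A1 and ALDH1A3 were named after their values were seen. NR3C2, the mineralocorticoid receptor, had 12.6 and 11.4 CPM in sgKDM5C and 2.21 and 3.11 CPM in sgKMT2B, against 10.6 and 14.6 CPM in WT (2.17 ± 0.23, adjusted p = 1.76e-05). STRA6, the cell-surface importer of retinol, was lower with a difference of -2.08 ± 0.29.

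Mesenchymal and matrix genes split. Of 34 genes of epithelial-mesenchymal transition, 6 were higher and 7 lower (4 without sgKMT2B replicate 2), the lower ones led by SNAI2 and SPARC. LOX, which cross-links collagen, had 9.80 and 11 CPM in sgKDM5C and 2.21 and 1.89 CPM in sgKMT2B, against 10.8 and 8.97 CPM in WT (2.34 ± 0.20, adjusted p = 3.32e-06). CDH2, N-cadherin, had 19 and 24.3 CPM in sgKDM5C and 40.8 and 42.0 CPM in sgKMT2B, against 18.9 and 23.7 CPM in WT (-0.93 ± 0.18, adjusted p = 0.00185).

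Of 61 collagen and matrix genes, 7 were higher and 13 lower. The lower count was 5 and 8 without sgKDM5C replicate 1 and 2, and 8 and 6 without sgKMT2B replicate 1 and 2. The lower ones included the fibrillar chains COL3A1, COL5A2 (-2.33 ± 0.26) and COL1A1 (-0.43 ± 0.12) and the glycoprotein tenascin TNC (-3.14 ± 0.33), and the higher ones were led by the basement membrane chains COL4A3 and COL4A4, with COL4A1 and COL4A2 at 0.87 and 0.60. COL1A1 did not pass without sgKDM5C replicate 1 (adjusted p = 0.16) or without sgKMT2B replicate 2 (adjusted p = 0.228).

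The markers of fibroblasts and endothelium include COL3A1 and COL1A1, which are also counted among these matrix genes, so the marker result is not separate from theirs. Of the 12 listed, 8 were tested, and 5 of them were lower in sgKDM5C: COL3A1, COL1A1, VWF, LUM and DCN. VWF, LUM and DCN reached the test only through the sgKMT2B libraries, where they are high, so their direction carries no weight. Their summed level was 33.1 and 35.6 CPM in sgKDM5C and 83.3 and 96.5 CPM in sgKMT2B, against 57.1 and 59.8 CPM in WT. COL1A2 had at most 4 counts in any library, while COL3A1 and COL1A1 made up most of the sum. The part of such cells in the matrix result was not tested, and fewer cells of a type and less RNA per cell cannot be told apart in these bulk libraries.

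Epithelial genes showed an inversion within a keratin pair. KRT8, which pairs with KRT18 in simple epithelia, had 51.6 and 50.8 CPM in sgKDM5C and 247 and 265 CPM in sgKMT2B, against 59.9 and 61.3 CPM in WT (-2.32 ± 0.10, adjusted p = 4.54e-09). KRT18 had 90.3 and 88.3 CPM in sgKDM5C and 61.0 and 64.8 CPM in sgKMT2B, against 100 and 94.3 CPM in WT (0.51 ± 0.10, adjusted p = 0.00346, or 0.0569 without sgKMT2B replicate 1). Over the 23 tested epithelial markers 5 were higher and 2 lower. ESRP2, an epithelial splicing regulator, and PKP2, a desmosomal plakophilin, were higher by 1.21 ± 0.14 and 1.26 ± 0.14, and KRT17, a stress keratin, was lower (-2.29 ± 0.32, adjusted p = 0.000185).

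Ligands and effectors of developmental signalling were among the genes higher in sgKDM5C. In the NOTCH pathway 7 of 25 tested genes were higher and 2 lower. The ligand JAG1 had 35.3 and 42.0 CPM in sgKDM5C and 18.2 and 17.7 CPM in sgKMT2B, against 26.2 and 27.5 CPM in WT (1.10 ± 0.14, adjusted p = 7.47e-05). The ligand JAG2 and the effectors HES6 and HES7 were higher by 1.17 ± 0.15, 1.21 ± 0.12 and 4.42 ± 0.40, and the receptor NOTCH1 was lower, at -0.89. In the WNT pathway 12 of 46 were higher (7 without sgKMT2B replicate 1) and 5 lower (2 and 3 without sgKDM5C replicate 1 and 2, and 1 without sgKMT2B replicate 2). WNT7B and WNT8B, both ligands, and NOTUM, a secreted WNT-inactivating enzyme, were higher by 2.81 ± 0.42, 2.73 ± 0.33 and 2.35 ± 0.25. DKK1, a secreted WNT antagonist, had 1.27 and 1.14 CPM in sgKDM5C and 3 counts in all in sgKMT2B, against 0.950 and 0.780 CPM in WT, a ratio between the knockouts of 20.2 (95% counting interval 6.62 to 101).

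In the TGF-beta and BMP pathway 9 of 48 genes were higher and 8 lower, and the lower count was 4 or 5 without any 1 of the knockout libraries. INHBB, an activin subunit, had 19.6 and 18.3 CPM in sgKDM5C and 2.41 and 3.11 CPM in sgKMT2B, against 9.13 and 9.49 CPM in WT (2.78 ± 0.20, adjusted p = 6.05e-07). TGFB1 had 157 and 139 CPM in sgKDM5C and 59.3 and 71.8 CPM in sgKMT2B, against 154 and 132 CPM in WT (1.18 ± 0.12, adjusted p = 1.34e-05). BMP7, a kidney morphogen, had 66.4 and 70.8 CPM in sgKDM5C and 117 and 118 CPM in sgKMT2B, against 94.3 and 106 CPM in WT (-0.78 ± 0.10, adjusted p = 8.79e-05). INHBB was highest in sgKDM5C, BMP7 lowest there, and TGFB1 in sgKDM5C overlapped WT.

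Immediate early and MAPK feedback genes gave 6 of 44 higher (3 without sgKMT2B replicate 2) and 8 lower (4 without sgKDM5C replicate 1 and 3 without sgKMT2B replicate 2). MYC, the growth-promoting transcription factor, had 74.8 and 74.4 CPM in sgKDM5C and 184 and 220 CPM in sgKMT2B, against 392 and 570 CPM in WT (-1.44 ± 0.15, adjusted p = 1.80e-05). Both knockouts were below WT, and sgKDM5C was the lower. DUSP2, a nuclear phosphatase of MAP kinases, had 4.88 CPM in both sgKDM5C libraries and 0.281 and 0.236 CPM in sgKMT2B, against 0.744 and 0.195 CPM in WT (4.21 ± 0.49, adjusted p = 4.20e-05). BTG2, an antiproliferative early gene that p53 also induces, was lower by a difference of -0.95 ± 0.13.

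Lists of growth genes had more members lower than higher in sgKDM5C. Their lower counts fell widely when single knockout libraries were left out, so nothing is read from these counts. Among 46 genes of the MYC network and ribosome biogenesis, 1 was higher (0 without any 1 of the knockout libraries, and 3 and 2 without WT replicate 1 and 2) and 12 lower in sgKDM5C (4 without sgKDM5C replicate 2, 5 and 7 without sgKMT2B replicate 1 and 2), with a median of -0.19. CAD, the enzyme that begins pyrimidine synthesis, had 360 and 402 CPM in sgKDM5C and 588 and 684 CPM in sgKMT2B, against 716 and 589 CPM in WT (-0.74 ± 0.11, adjusted p = 0.00029). Of 79 cytosolic ribosomal protein genes, 22 were lower and none was higher (9 and 12 lower without sgKDM5C replicate 1 and 2, 8 without sgKMT2B replicate 2). RPL36 had 815 and 813 CPM in sgKDM5C and 1321 and 1533 CPM in sgKMT2B, against 1159 and 1280 CPM in WT (-0.81 ± 0.09, adjusted p = 2.35e-05), and RPS7 and RPS12 had differences of -0.72 ± 0.08 and -0.74 ± 0.09. Ribosomal protein genes have many near-identical processed pseudogenes that could take part of their reads, so these values are uncertain.

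The amino acid response driven by ATF4, which raises amino acid synthesis, transport and tRNA charging under stress, had 17 of 36 genes lower in sgKDM5C and 2 higher (0 without any 1 of the knockout libraries), with a median of -0.36. NUPR1, a stress-induced chromatin protein, had 7.39 and 4.01 CPM in sgKDM5C and 49.3 and 38.2 CPM in sgKMT2B, against 5.41 and 7.93 CPM in WT (-2.94 ± 0.26, adjusted p = 3.58e-06). EIF4EBP1, the repressor of cap-dependent translation, had 278 and 239 CPM in sgKDM5C and 488 and 469 CPM in sgKMT2B, against 336 and 338 CPM in WT (-0.89 ± 0.11, adjusted p = 7.35e-05). MTHFD2, of mitochondrial one-carbon metabolism, and XPOT, the tRNA exporter, had differences of -0.97 ± 0.13 and -0.72 ± 0.10. Against the shared WT libraries, 8 genes of the list were higher and 5 lower in sgKDM5C, while in sgKMT2B 17 were higher and 3 lower.

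HEK293T cells carry SV40 large T antigen, which binds the tumour suppressor p53. Targets of p53 and inhibitors of the cell cycle had 14 of 30 genes lower in sgKDM5C and 2 higher (1 without sgKDM5C replicate 1 or sgKMT2B replicate 1, and 0 without sgKMT2B replicate 2), with a median of -0.42. CDKN1A, the p21 inhibitor of cyclin-dependent kinases, had 105 and 97.5 CPM in sgKDM5C and 171 and 201 CPM in sgKMT2B, against 90.9 and 115 CPM in WT (-0.88 ± 0.12, adjusted p = 0.000167). ZMAT3, a p53-induced RNA-binding protein, had 29.1 and 30.7 CPM in sgKDM5C and 55.2 and 57.0 CPM in sgKMT2B, against 30.3 and 33.0 CPM in WT (-0.91 ± 0.12, adjusted p = 9.30e-05). PHLDA3, an inhibitor of AKT, had 41.0 and 41.3 CPM in sgKDM5C and 97.2 and 95.2 CPM in sgKMT2B, against 21.4 and 21.8 CPM in WT (-1.22 ± 0.10, adjusted p = 2.81e-06). CDKN1A and ZMAT3 in sgKDM5C overlapped WT, and PHLDA3 was above WT in both knockouts. Leaving out any 1 library kept the count of lower members of this list and of the ATF4 list within 1.5 times.

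Sterol and fatty acid synthesis split by step. Of 34 genes, 3 were higher and 9 lower, and the lower count was 4 or 5 without any 1 of the knockout libraries. SQLE, squalene epoxidase, had 59.9 and 66.3 CPM in sgKDM5C and 102 and 116 CPM in sgKMT2B, against 149 and 164 CPM in WT (-0.79 ± 0.11, adjusted p = 0.000136). The sterol reductase TM7SF2 and the desaturase FADS2 were higher by 1.46 ± 0.14 and 1.02 ± 0.10. In glycolysis 6 of 40 genes were higher and 2 lower (1 without sgKDM5C replicate 2 or either sgKMT2B library). The neuronal enolase ENO2 had 171 and 180 CPM in sgKDM5C and 36.8 and 41.8 CPM in sgKMT2B, against 118 and 115 CPM in WT (2.16 ± 0.10, adjusted p = 1.38e-08). The hexokinases went opposite ways, HK1 at 0.79 ± 0.09 and HK2 at -0.84 ± 0.10. HK1 lies on chromosome 10, where the median log2 difference over genes was 0.35. HK2 lies in the first 80 Mb of chromosome 2, where window medians were between -0.42 and -0.37. The part of these regional differences in the hexokinase contrast was not tested.

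Interferon-stimulated genes had 8 of 38 members higher in sgKDM5C and 1 lower (0 without sgKDM5C replicate 1 or 2 or sgKMT2B replicate 2, and 2 without either WT library), a median of 0.05, and counts of 4 and 5 higher without sgKDM5C replicate 1 and 2 and 3 without sgKMT2B replicate 1. MX1, an antiviral GTPase, had 1.06 and 0.416 CPM in sgKDM5C and 0 counts in sgKMT2B, against 0.248 and 0.260 CPM in WT, which is at least 12.4-fold higher in sgKDM5C (adjusted p = 0.00282). MX1 reached the test only through the sgKDM5C libraries, where it is high, and its values rest on few counts. USP18, which removes ISG15, had 37.7 and 37.0 CPM in sgKDM5C and 23.4 and 23.1 CPM in sgKMT2B, against 44.0 and 48.2 CPM in WT (0.68 ± 0.12, adjusted p = 0.00141).

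Counts for genes of H3K4 methylation stand against a background of 11.6% higher and 10.5% lower over all genes. Nothing is read from these counts, which moved with single libraries. Of 23 genes of H3K4 methyltransferases and COMPASS subunits, 2 were higher, KMT2B itself and BOD1L1, and 3 lower, NCOA6, DPY30 and HCFC1. Without sgKDM5C replicate 2 or sgKMT2B replicate 1, 1 was higher and 1 lower; without sgKMT2B replicate 2, 1 was higher; and 5, 7 and 8 were lower without sgKDM5C replicate 1 and WT replicate 1 and 2. The paralogues of KMT2B did not pass: KMT2A differed by -0.13 ± 0.11, KMT2C by 0.01 ± 0.12, KMT2D by 0.01 ± 0.09, SETD1A by -0.09 ± 0.09 and SETD1B by -0.39 ± 0.13. Of 17 genes of H3K4 demethylases and their partners, KDM5C, KDM5B and RCOR2 were lower and none was higher. Here 1 was lower without sgKDM5C replicate 1 or 2 or sgKMT2B replicate 2, 6 without either WT library, and 1 was higher without sgKMT2B replicate 1. KDM5A differed by 0.13 ± 0.12 and KDM1A by -0.09 ± 0.09, neither past the test. KDM5B had 136 and 143 CPM in sgKDM5C and 169 and 195 CPM in sgKMT2B, against 127 and 167 CPM in WT, and its adjusted p of 0.0401 became 0.161 and 0.0913 without sgKDM5C replicate 1 and 2 and 0.282 without sgKMT2B replicate 2. DNMT3B, a de novo DNA methyltransferase, had 42.1 and 38.6 CPM in sgKDM5C and 88.6 and 83.7 CPM in sgKMT2B, against 60.9 and 70.4 CPM in WT (-1.09 ± 0.11, adjusted p = 1.34e-05). Of 32 Polycomb genes 5 were higher (2 without sgKDM5C replicate 2 or either sgKMT2B library) and 7 lower (3 without sgKDM5C replicate 1 or sgKMT2B replicate 1, and 2 without sgKMT2B replicate 2).

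The remaining lists are given by their counts alone, against the background of 11.6% higher and 10.5% lower. Oxidative phosphorylation subunits gave 4 of 75 higher and 4 lower, S phase genes 3 of 44 and 5, G2 and M phase genes 4 of 50 and 5, cytosolic heat shock chaperones 2 of 21 and 2, and YAP targets 4 of 25 and 4. Endoplasmic reticulum chaperones gave 1 of 23 higher and 5 lower, histone genes 1 of 25 and 4, DNA methylation and imprinting factors 0 of 17 and 3, and imprinted genes 2 of 18 and 6. In each of these 9 lists at least 1 of the counts moved by over 1.5 times when 1 of the knockout libraries was left out, and nothing is read from them. HSPB1, the small heat shock protein HSP27, kept its call without any 1 library and had 130 and 140 CPM in sgKDM5C and 58.3 and 63.3 CPM in sgKMT2B, against 60.4 and 68.6 CPM in WT (1.15 ± 0.11, adjusted p = 5.93e-06).

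**Figure D4:**
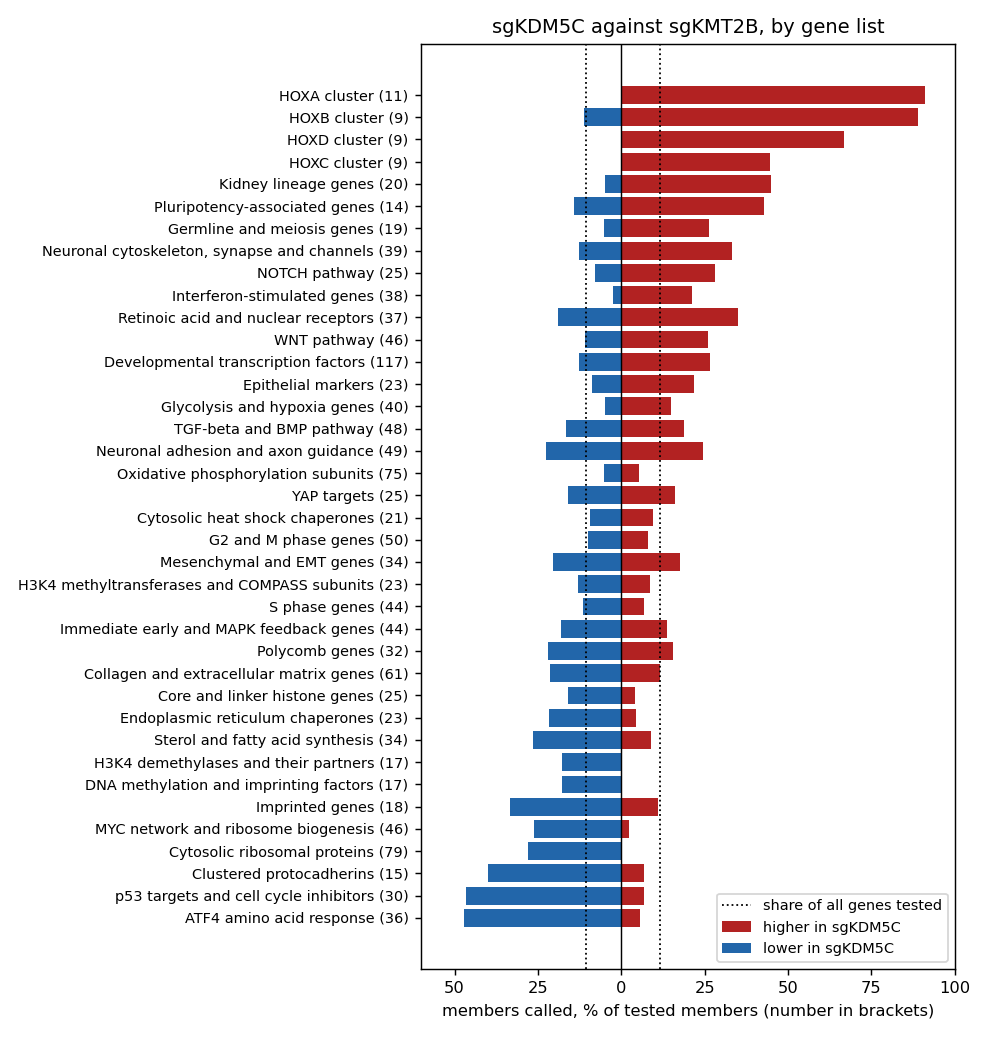
Share of the tested members of each gene list that were called higher (to the right) or lower (to the left) in sgKDM5C relative to sgKMT2B, in % of tested members, whose number stands in brackets; dotted lines mark 11.6% and 10.5%, the shares over all genes tested. The HOX clusters lie at the top, with 10 of 11 HOXA genes higher, and the ATF4 and p53 lists at the bottom, with 17 of 36 and 14 of 30 genes lower.

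Differences also ran along whole chromosomes. Among genes averaging 1 CPM or more, the median log2 difference was 0.35 on chromosome 10 and 0.40 on chromosome 13, where 38.6% and 43.2% of genes were higher in sgKDM5C, and it was -0.30 on chromosome 20, where 39.5% were lower. Against the shared WT libraries, these 3 chromosomes had medians of 0.04, 0.03 and -0.03 in sgKDM5C and -0.33, -0.41 and 0.28 in sgKMT2B. On chromosome 2 the 4 windows of 20 Mb up to 80 Mb had medians between -0.42 and -0.37. There it was sgKDM5C that stood below WT, with medians between -0.43 and -0.34, against -0.06 to 0.03 in sgKMT2B. The windows of chromosome 1 between 140 and 240 Mb had medians between -0.40 and -0.22, and the first 20 Mb of chromosome 4 had a median of 0.55.

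The groups described above were counted again without the 5 chromosomes whose median was at least 0.1 from 0 (2, 8, 10, 13 and 20). Over all genes, 2859 of 14310 were then called, 1509 higher in sgKDM5C and 1350 lower, and the counts below are to be read against these. Without them 22 of 29 HOX genes, 5 of 16 germline genes, 23 of 86 developmental factors and 11 of 34 retinoic acid and receptor genes were higher, and 13 of 29 ATF4 genes, 11 of 24 p53 targets and 17 of 68 ribosomal protein genes were lower. The kidney list was left with 3 of 9 genes higher, the pluripotency list with 3 of 9, glycolysis with 1 of 27, and the MYC and ribosome biogenesis list with 4 of 28 lower. The recounts kept the stretches of chromosomes 1 and 4 given above and the first 20 Mb of chromosome 19 (median -0.22). They are therefore not free of regional differences. HOXD lies on chromosome 2 in a window, 160 to 180 Mb, whose median was 0.07. CSTF2T, CXCL12, GFRA1, UTF1, INA and HK1 lie on chromosome 10 and SOX21, HS6ST3 and SLITRK5 on chromosome 13. HK2 and MTHFD2 lie in the first 80 Mb of chromosome 2, and DNMT3B lies on chromosome 20 beyond 20 Mb. EIF4EBP1 and SNAI2 lie on chromosome 8 (median -0.17), and NES, BTG2, PHLDA3 and KDM5B between 140 and 240 Mb of chromosome 1. Other named genes may lie in such stretches too, and the part of the regional difference in the values of all these genes was not tested.

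**Figure D5:**
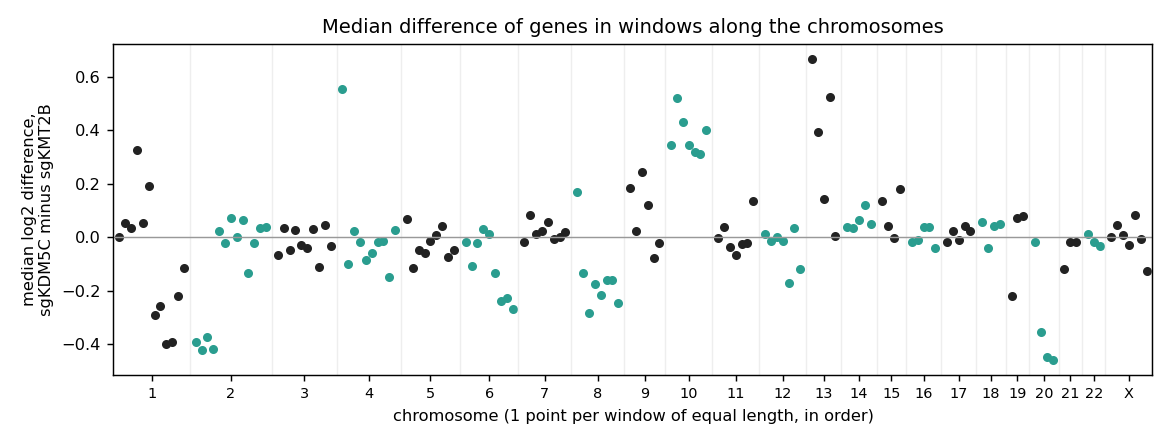
Median log2 difference (sgKDM5C minus sgKMT2B) of the genes in consecutive windows of equal length along each chromosome, for windows with at least 20 genes averaging 1 CPM or more. Chromosome 10 lies above 0 throughout (median over the chromosome 0.35), the start of chromosome 2 lies near -0.4, and the later windows of chromosome 20 lie between -0.46 and -0.35.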

How the data were processed

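NovaSeq reads of poly(A) RNA came from HEK293T knockout lines and their parental cells. The authors deposited whole-number counts per gene for all 8 libraries. The submitters' processing notes name STAR, HTSeq 0.11.2 and the GRCh38 (hg38) build. Which annotation release and which strand setting served is not stated there, so reads of overlapping antisense genes cannot be told apart. Totals ran between 15868353 and 27591724 counts. Floors and counting intervals (95%, exact) cover counting error only.

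Counts were fitted with edgeR 4.0.16 (R 4.3.3): filterByExpr removed low-count genes, factors were set by TMM, and a quasi-likelihood test (2-sided) was run on 17527 genes with 1 coefficient per group, all 8 libraries sharing 1 estimate of the spread on 4 residual degrees of freedom. P-values were adjusted by Benjamini-Hochberg over all genes tested and called at 0.05. A log2 difference is sgKDM5C minus sgKMT2B unless WT is named. No label says that replicates were separate cultures, so p-values measure only how these samples vary, possibly for technical reasons. The fit was tested on simulated counts with known changes: it found most of the large changes but a minority of the smallest, and its false calls were more than the nominal rate, so small differences near the threshold are the least certain. DESeq2 1.42.0 and other settings served as alternatives.

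The comparison, its 42 gene lists and the rules were chosen with earlier results of these data known. The text names the targeted genes; the 12 called genes most above and the 12 most below sgKMT2B, with at least 5 CPM in the higher group and no overlap of libraries; up to 4 called members a list, by smallest adjusted p; and up to 6 genes in each direction with the knockouts on opposite sides of WT. Some genes that these rules select are not reported here. Other genes named with values were chosen after their values were seen. Of the listed symbols 4 were not found in the table. Gene coordinates come from GENCODE on GRCh38 and promoters from RefSeq.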

Additional observations from a re-analysis of the deposited data

Results flagged for a closer look

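In the 12 genes given here the changes of the knockouts from WT ran in opposite directions. The direct comparison of the knockouts is the test of that difference, and each passed an adjusted p of 0.05 in edgeR's quasi-likelihood test. The 12 were picked by this pattern and by the size of their smaller change from WT, and other genes share the pattern. Both changes use the same WT libraries. NELL2 had a log2 change from WT of 1.58 in sgKDM5C and -2.54 in sgKMT2B, a difference of 4.12 (adjusted p = 8.03e-08). PLEKHG4B had a log2 change from WT of 1.52 in sgKDM5C and -2.61 in sgKMT2B, a difference of 4.13 (adjusted p = 1.14e-06). XK had a log2 change from WT of 1.68 in sgKDM5C and -2.23 in sgKMT2B, a difference of 3.91 (adjusted p = 8.81e-07). HOXB5 had a log2 change from WT of 1.57 in sgKDM5C and -1.85 in sgKMT2B, a difference of 3.41 (adjusted p = 2.49e-08). PRRX1 had a log2 change from WT of 1.62 in sgKDM5C and -2.24 in sgKMT2B, a difference of 3.87 (adjusted p = 6.85e-06). KCNN3 had a log2 change from WT of -1.64 in sgKDM5C and 1.42 in sgKMT2B, a difference of -3.06 (adjusted p = 5.28e-05). CRYZ had a log2 change from WT of 2.00 in sgKDM5C and -3.71 in sgKMT2B, a difference of 5.70 (adjusted p = 8.44e-08). BCHE had a log2 change from WT of -3.42 in sgKDM5C and 3.69 in sgKMT2B, a difference of -7.12 (adjusted p = 3.68e-07). KRTAP19-1 had a log2 change from WT of -2.36 in sgKDM5C and 3.18 in sgKMT2B, a difference of -5.55 (adjusted p = 1.83e-05). SNAI2 had a log2 change from WT of -4.51 in sgKDM5C and 2.03 in sgKMT2B, a difference of -6.55 (adjusted p = 6.49e-10). SPARC had a log2 change from WT of -3.00 in sgKDM5C and 1.57 in sgKMT2B, a difference of -4.57 (adjusted p = 1.23e-09). ADGRL3 had a log2 change from WT of -3.36 in sgKDM5C and 2.73 in sgKMT2B, a difference of -6.09 (adjusted p = 1.54e-07).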

How the results depend on the processing

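With 2 libraries a group, the count of 3882 called genes depended most on single libraries: it was 2236 to 2583 when 1 of the knockout libraries was left out and 4426 or 4488 without 1 WT library. Under the other settings it ran from 3624 (mean of at least 1 CPM) to 4415 (replicate number as a block), with 4396 in only the 4 knockout libraries and 3808 by DESeq2. Upper-quartile factors gave 59.9% of called genes as higher in sgKDM5C, against 52.6%. The count of at least 2-fold differences, 1397, ran from 1064 to 1537. Called members of gene lists differing between sgKDM5C and sgKMT2B numbered 433 and ran from 277 without sgKMT2B replicate 2 to 496 without WT replicate 2. KDM5C kept its direction, but without 1 knockout library its difference of -0.34 to -0.26 had adjusted p-values of 0.0549 to 0.146. A lone library in an arm was assumed to vary like the other groups. Of 2239 values of the 173 other named genes under these settings, 2146 kept direction and call, 93 kept direction and lost the call, and none reversed. Omission of chromosomes 2, 8, 10, 13 and 20, added after seeing the data, gave 2859 called genes.

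Replicate numbers appear in all groups of the labels, but nothing says what they pair. Deviations of same-numbered libraries from their group means correlated by 0.18 between sgKDM5C and sgKMT2B, by 0.356 and 0.166 between sgKDM6A and these, and by -0.016 to 0.023 between WT and the knockouts. Same-numbered knockout libraries thus deviated together and those of WT did not, and with 2 numbers a group this does not settle whether the numbers pair the samples. A fit with the replicate number as a block called 4415 genes and kept all 175 calls among the named genes. In 4 lists it moved a count by over 1.5 times: 5 H3K4 methyltransferase and COMPASS genes, 2 kidney genes and 4 interferon-stimulated genes were lower in sgKDM5C, and 2 genes of the MYC network list were higher.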
